A study of Mus musculus with 4 samples.

Results

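Kalrn and Trio encode a pair of closely related signalling proteins of neurons, kalirin and Trio. Here their H3K27ac peaks were described in left cerebral cortex from female mice. H3K27ac is acetylation of lysine 27 of histone H3, a mark of promoters and enhancers in use. The mice were adults, 2 months old, and of the strain B6CASTF1/J, the first-generation cross of C57BL/6J with CAST/EiJ. There were 4 samples: pool I and pool J, each combined from 4 biosamples of the tissue and each sequenced as 2 libraries. All samples belonged to 1 condition, so the series holds no contrast between conditions and no test was made. The peak lists hold values per pool and not per mouse or library, and whole tissue mixes cell types, so that fewer marked cells and less acetylation per cell cannot be told apart.

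The members were every peak of the replicated list, made by the authors from both pools, that lay on Kalrn or Trio or within 100 kb of them. This gave 158 peaks for Kalrn and 59 for Trio, of 72027 in the list, and the 2 genes were taken from 21755 protein-coding genes. The genes were chosen by measured values, since the peak counts, widths and signals of these same lists were known when they were picked. Their peak numbers, widths and signals are therefore a description and carry no test. A peak counted as a promoter peak where it came within 1000 bp of an annotated transcription start site (TSS) of the gene, in the GENCODE vM21 basic set on mm10. A body peak was any other peak on the gene, and a flank peak lay outside it within 100 kb. Peak signal is the authors' value for each peak, on a scale that the labels and files do not explain. The median peak of the list had a signal of 3.67 and a width of 597 bp, and 10% of peaks exceeded 9.06 or 1800 bp.

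Kalirin and Trio are guanine nucleotide exchange factors, enzymes that switch on small GTPases by exchanging their bound GDP for GTP. The longest form of each has a Sec14 lipid-binding domain, a row of spectrin-like repeats, a pair of exchange modules and, at its C-terminal end, a kinase domain. The first exchange module acts on Rac1 and RhoG and the second on RhoA, GTPases that shape the actin skeleton of axons and dendrites. Many proteins come from each gene through alternative starts and ends. Kalirin-7, a short form that ends after the first module, sits at the postsynaptic density and is known for the upkeep of dendritic spines, and delta-kalirins, described in rat, lack the N-terminal part. Trio is known for axon guidance and outgrowth.

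The tissue label was checked against markers of its cell types. All 4 markers of excitatory neurons had a promoter peak, with signals of 10.8 to 16.5. Both interneuron markers did too (3.37 and 3.87), and so did 2 of 3 astrocyte markers, Slc1a2 with 13.8 and Aqp4 with 3.67, while Gfap had none. Of oligodendrocyte markers, Mbp had a signal of 10.3 and Mog one of 3.77. All 3 microglia markers (2.44 to 4.09) and both endothelial markers (3.07 and 4.17) had a promoter peak. Of 4 genes used outside the cortex, none had a promoter peak. Read numbers are in neither the labels nor the lists; depth is unknown, and counting error cannot be given. The pool I list held 69834 peaks on the chromosomes used and the pool J list 49839.

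Sequences are shown for the most strongly marked places of both genes. They are the Trio start, the internal Kalrn start under its widest peak, and the 200 bp around the summits of the 2 body peaks of highest signal in each gene. All are read 5′ to 3′ on the minus strand, on which both genes lie, from the RefSeq copy of GRCm38.p6 (mm10). Capitals mark matches to the motifs listed with the results on sequence, which here are all GC boxes (GGGCGG or its complement). A start window holds 230 bases before the outermost annotated start and 20 bases from it. Introns are numbered in the longest basic transcript of each gene. The window in intron 34 of Trio also holds 12 untranslated exon bases from other annotated coding transcripts, and that at the 5′ end of Kalrn holds 7. Coding exon bases of such transcripts were not counted, so either window can hold more exon sequence than this.
Trio start, chr15:28025829-28026078, minus strand: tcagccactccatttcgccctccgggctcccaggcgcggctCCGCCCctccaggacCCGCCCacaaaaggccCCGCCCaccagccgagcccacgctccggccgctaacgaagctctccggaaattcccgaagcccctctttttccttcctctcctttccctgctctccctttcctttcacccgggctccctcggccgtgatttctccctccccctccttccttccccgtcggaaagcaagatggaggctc
Kalrn internal start, chr16:34263300-34263549, minus strand: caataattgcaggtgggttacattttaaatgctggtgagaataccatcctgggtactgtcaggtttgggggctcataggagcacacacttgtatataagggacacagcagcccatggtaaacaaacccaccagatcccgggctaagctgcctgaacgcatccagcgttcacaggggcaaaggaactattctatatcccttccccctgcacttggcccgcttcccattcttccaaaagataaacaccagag
Kalrn peak at the 5′ end of the gene, chr16:34572987-34573186, minus strand: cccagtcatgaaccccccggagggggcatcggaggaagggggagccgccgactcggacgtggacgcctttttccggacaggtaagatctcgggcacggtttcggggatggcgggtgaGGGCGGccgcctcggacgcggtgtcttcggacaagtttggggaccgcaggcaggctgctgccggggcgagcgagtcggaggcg
Kalrn body peak in intron 14, chr16:34237758-34237957, minus strand: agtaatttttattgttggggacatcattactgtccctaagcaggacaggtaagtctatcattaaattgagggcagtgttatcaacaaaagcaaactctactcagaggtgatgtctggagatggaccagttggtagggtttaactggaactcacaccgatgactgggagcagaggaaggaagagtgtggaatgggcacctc
Trio body peak in intron 34, chr15:27787999-27788198, minus strand: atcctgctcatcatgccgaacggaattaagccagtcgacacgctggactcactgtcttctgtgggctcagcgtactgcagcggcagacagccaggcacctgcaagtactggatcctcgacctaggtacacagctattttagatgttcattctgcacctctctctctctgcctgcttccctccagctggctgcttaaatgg
Trio body peak in intron 1, chr15:27937423-27937622, minus strand: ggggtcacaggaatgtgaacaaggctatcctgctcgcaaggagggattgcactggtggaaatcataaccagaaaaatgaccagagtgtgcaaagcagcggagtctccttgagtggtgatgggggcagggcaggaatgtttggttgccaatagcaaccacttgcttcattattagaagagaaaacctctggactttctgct

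Kalrn spans chr16:33969073-34573532, 604.5 kb on the minus strand. Of its 158 peaks, 7 were promoter peaks, 132 body peaks and 19 flank peaks. Among the body peaks, 10 touched an exon of the basic set and 122 did not. The 122 include 18 with summits between the 5′ end of the gene record and the first basic start, where the basic set has no intron. Peaks covered 20.5% of the gene, at a median width of 512 bp and a median signal of 3.21 for the 139 peaks on it. Most of the peaks on the gene were narrow and weak, and 11 were 2 kb or wider.

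**Figure D1:**
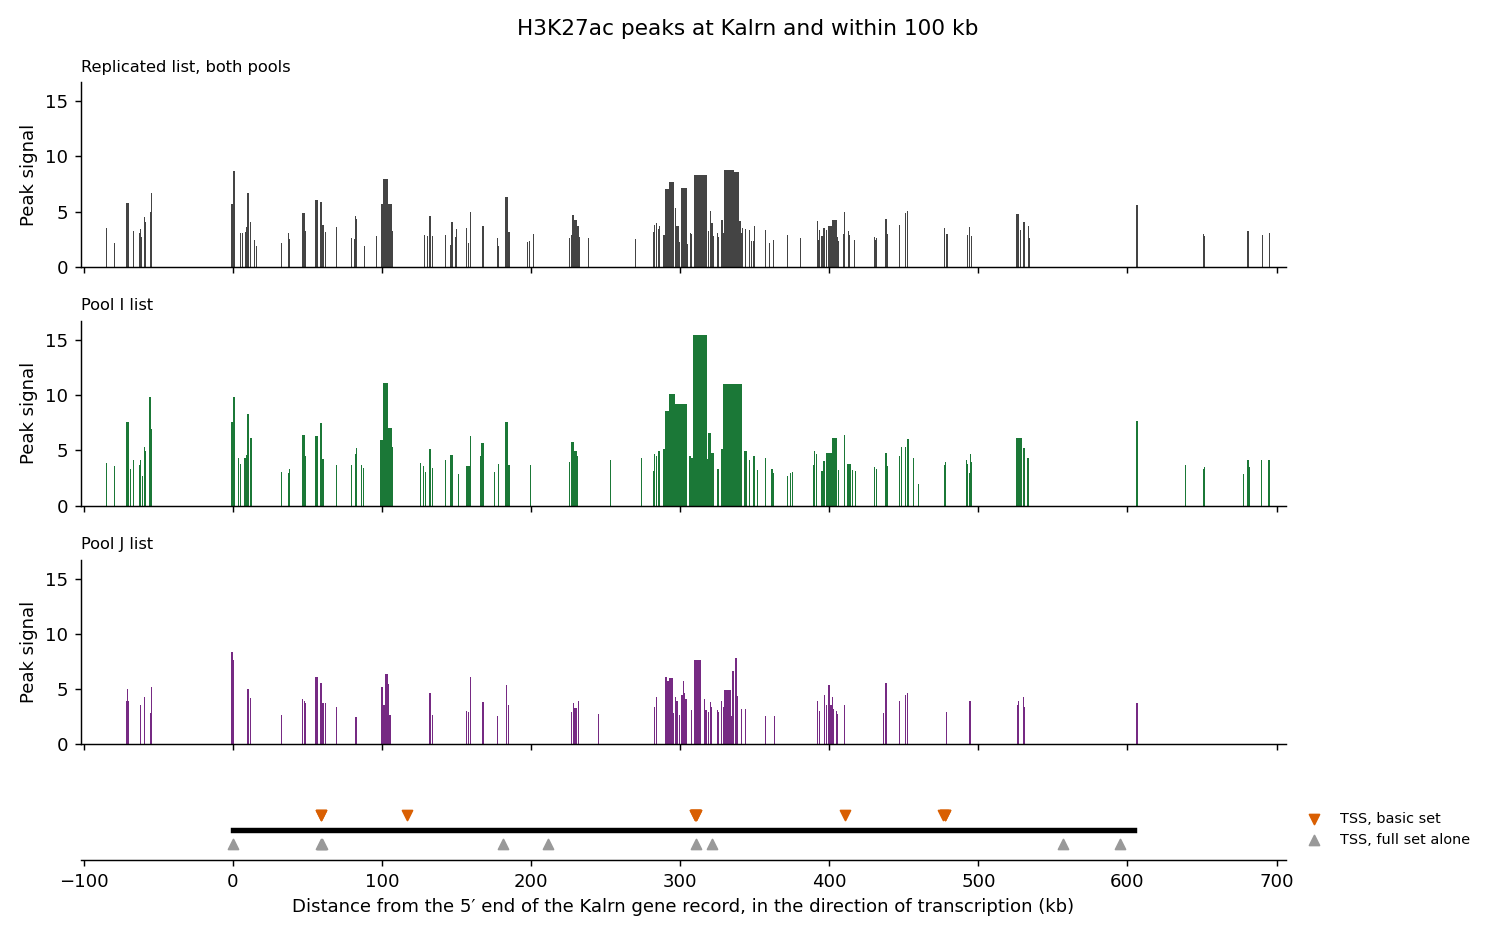
H3K27ac peaks at Kalrn in the replicated list (top), the pool I list and the pool J list: each bar is a peak, placed by its distance from the 5′ end of the gene record in kb, with its signal as height; narrow peaks are drawn at a minimum width. The black line is the gene and the triangles are TSSs. The 2 widest blocks begin near 309 and 329 kb from the 5′ end in all 3 lists. The first of them reaches 15.46 in pool I and 7.63 in pool J, where the highest bar is 8.35, at the 5′ end of the gene.

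The starts of Kalrn were marked unequally. In the basic set it has 11 TSSs, of which 10 had a peak within 1000 bp; over all coding genes, 58.9% of TSSs did. Among the starts of the basic set, the highest promoter signal was at an internal cluster of 4, chr16:34262839 to 34263200, about 310 kb into the gene record. With the starts of the full GENCODE set or of RefSeq, a peak of 8.68 at the 5′ end of the gene is slightly higher. The 4 starts of the cluster lie in intron 10 of the longest coding transcript, just before exon 11, and their transcripts carry 2469 to 3066 bp of coding sequence. They lay under 1 peak of 8687 bp, chr16:34255517-34264203, with a signal of 8.33 in the replicated list. The overlapping pool peaks had a signal of 15.46 and a width of 9376 bp in pool I, and a signal of 7.63 and a width of 4590 bp in pool J. Their summits were 253 and 27 bp from that of the replicated peak, so both pools placed the top of the peak near the same point. The summit of the replicated peak lay in intron 11 of the longest coding transcript, beyond the 4 starts and exon 11. The peak was wider than 99.9% of all peaks in the list, while 88.2% had a lower signal.

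The other Kalrn starts of the basic set had lower signals. The starts at chr16:34514086 and chr16:34514048, whose transcripts have 4989 and 4962 bp of coding sequence, lay under a peak of 1149 bp with a signal of 5.88 in the replicated list, 7.44 in pool I and 5.57 in pool J. A second peak within 1000 bp of them had 3.74, with 4.24 in pool I and 3.75 in pool J. The start at chr16:34163279 had a peak of 774 bp and a signal of 4.96, with 6.34 in pool I and 3.53 in pool J, and a further peak of 2.97 at 896 bp that overlapped none in either pool list. At the starts between chr16:34095987 and chr16:34097090 the peaks were only 203 and 173 bp wide, with signals of 3.47 and 2.97. The first of these was also in pool I (3.68) and not in pool J, and the other in pool J (2.97) and not in pool I. Pool I had a further peak, of 3.93, within 1000 bp of the starts chr16:34096028 and chr16:34095987.

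In the basic set, the start of the longest GENCODE coding sequence of Kalrn was the 1 without a peak. The transcript that begins at chr16:34456917, a start that is not among those of RefSeq, has 60 exons and 8892 bp of coding sequence. Its nearest peak was 9273 bp away, and neither pool list had a peak within 1000 bp. The strongest peak near the 5′ end of the gene stood elsewhere. It was a peak of 1035 bp at chr16:34572204-34573238 with a signal of 8.68, and 9.82 in pool I and 7.65 in pool J. In the basic set it counts as a body peak, 58118 bp from the nearest start. Its signal was above that of the internal cluster in the replicated list, below it in pool I and about level with it in pool J. In the full GENCODE set it lies within 1000 bp of a start at chr16:34573532, of a transcript with no annotated coding sequence, and in RefSeq it lies 39 bp from a predicted coding start at chr16:34573277. A neighbour of 1115 bp that reaches across the end of the gene record had 5.72 in the replicated list, 7.55 in pool I and 8.35 in pool J, one of the few peaks with a higher value in pool J.

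RefSeq gave a different set of Kalrn starts. It lists 8, and each had a peak within 1000 bp, with the highest signals at 34573277 (8.68) and 34263319 (8.33). The share of all RefSeq starts with a peak was not computed, so the RefSeq counts of both genes stand without a background. In RefSeq, coding transcripts begin at chr16:34517316 and chr16:34517313, under a peak of 1742 bp. Its signal was 6.06, with 6.28 in pool I and 6.12 in pool J. The start used by the most RefSeq transcripts, 29 of them at chr16:34542190 and all predicted, had only a peak of 2.13 at 881 bp. The start of the 2 curated RefSeq transcripts, chr16:34514027, fell under the peak of 5.88 described above. Which starts are used in this tissue was not measured here, since the series holds no RNA.

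The body peaks of Kalrn were densest in the 99.9 kb that follow the internal start cluster. There 34 body peaks covered 35.4% of the sequence, against 46 that covered 19.9% in the 194 kb before the cluster and 9 that covered 5.01% in the last 128 kb of the gene. With the promoter peaks, which include the peak of 8687 bp, the first of these shares was 43.8%. The body peak of highest signal, 8.72, was also the widest, with 6915 bp at chr16:34237164-34244078 and its summit in intron 14. A peak of 2829 bp and 8.56 followed it. Pool I had 1 peak of 12746 bp and a signal of 11 across both, while pool J had separate peaks of 6.65 and 7.79. Intron 10 of the longest transcript, just before the cluster, held 15 peaks, among them a peak of 3524 bp with 7.65 (10.10 in pool I and 6.02 in pool J) and a peak of 4387 bp with 7.16 (9.23 in pool I and 5.75 in pool J). The remaining peak of the 5 with highest signal lay upstream, at chr16:34469685-34472675, with 2991 bp and 7.96 (11.05 in pool I and 6.40 in pool J).

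Outside Kalrn, 12 flank peaks lay upstream and 7 downstream. The nearest upstream one stood 54.3 kb away, and the highest had a signal of 6.66, with 6.94 in pool I and 5.19 in pool J. Downstream the highest, 5.62, was at the promoter of Umps, which encodes an enzyme of pyrimidine synthesis, and of the antisense gene Gm15829. Itgb5, an integrin gene, had promoter peaks of up to 3.27, and Ropn1, known for sperm motility, had none. The pool I list had 21 flank peaks and the pool J list 8. The outermost peaks inside the 100 kb limit were 84.2 kb upstream (3.47) and 90.3 kb downstream (3.07), and the nearest outside it were at 117 kb (4.92) and 108.4 kb (3.17).

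Trio spans chr15:27730651-28025848, 295.2 kb on the minus strand. It had 4 promoter peaks, 44 body peaks and 11 flank peaks, and peaks covered 17.3% of the gene. Of the body peaks, 36 lay in introns and 8 touched an exon. The 48 promoter and body peaks had a median width of 605.5 bp and a median signal of 3.27. Of its starts in the basic set, the one at its annotated 5′ end had the highest promoter signal. In the full GENCODE set an internal start lies under a peak of higher signal, described below with the body peaks.

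**Figure D2:**
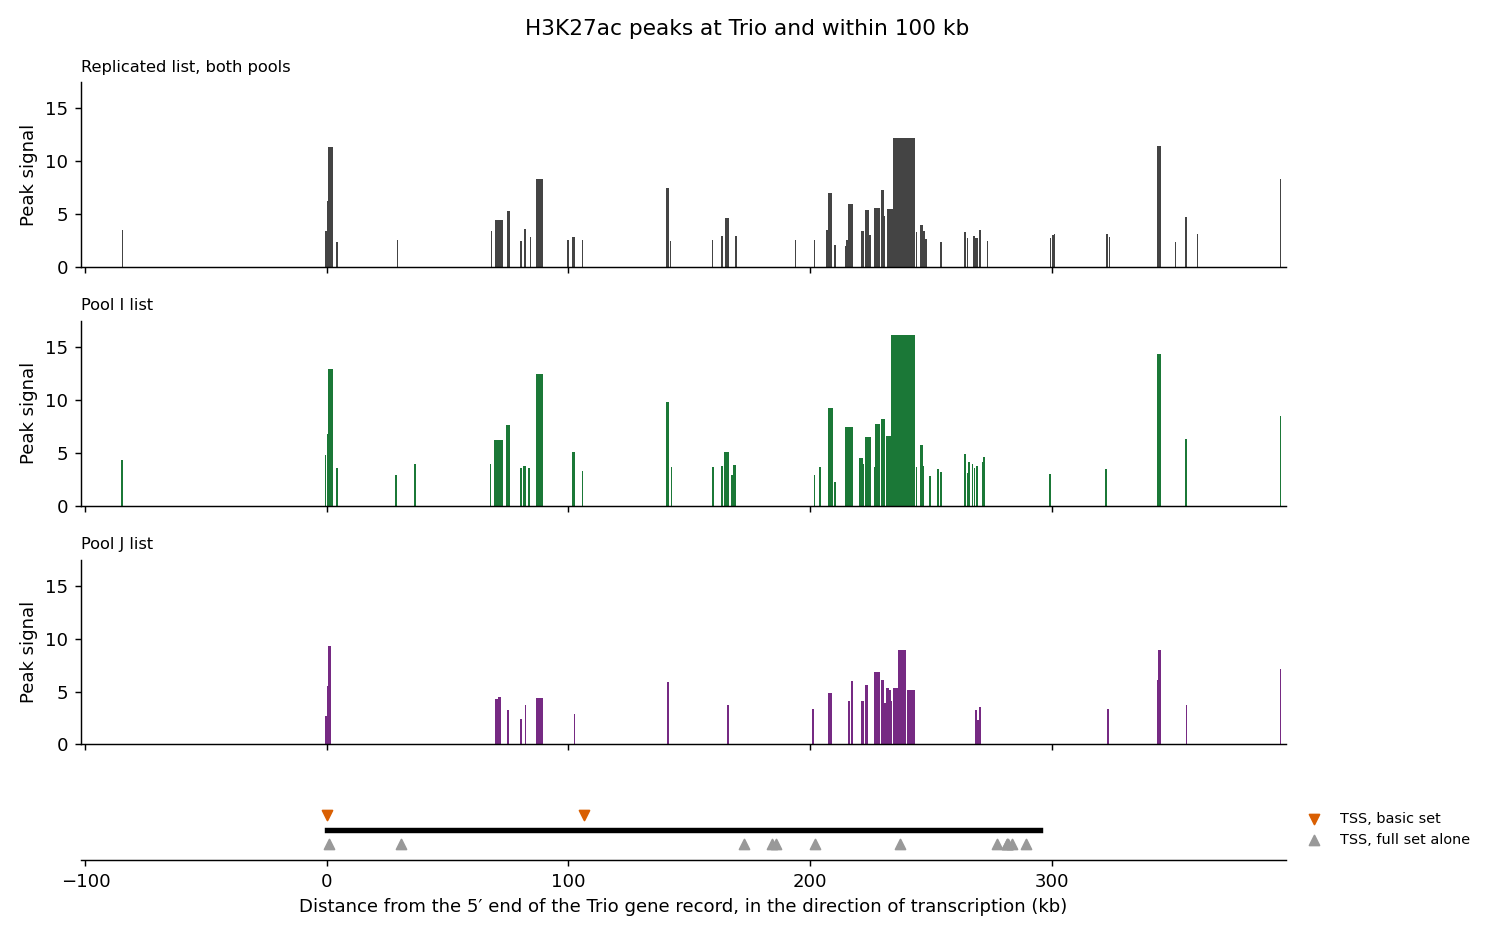
H3K27ac peaks at Trio, drawn as for Kalrn: distance from the 5′ end of the gene record in kb against peak signal, in the replicated list (top), the pool I list and the pool J list. The start at 0 kb reaches 12.96 in pool I and 9.28 in pool J, and the widest block, near 237.7 kb, reaches 16.17 in pool I and 8.91 in pool J.

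At the start chr15:28025848, whose transcript has 9309 bp of coding sequence, a peak of 2063 bp lay 429 bp inside the gene, at chr15:28023357-28025419. Its signal was 11.35 in the replicated list, 12.96 in pool I and 9.28 in pool J, with pool summits 35 and 1 bp from that of the replicated peak. A narrow peak of 298 bp covered the start itself, with 6.26, and 6.75 in pool I and 5.57 in pool J. Another, upstream, had 3.37, with 4.77 in pool I and 2.68 in pool J. All 3 peaks of this start were thus in both pool lists. The other basic start, chr15:27919271, had only a peak of 298 bp and 2.56 at 730 bp, found in pool I (3.27) and not in pool J. RefSeq lists 5 Trio starts, of which 4 had a peak, and 3 of these share the peak of 11.35.

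The body peaks of Trio were unevenly spread, with 11 in the first 107 kb, nearly all of which is intron 1, 12 in intron 34 and 5 in intron 33. Of all its body peaks, 29.5% lay upstream of the midpoint of the gene. Body peaks covered 10.6% of those 107 kb and 19.7% of the 189 kb after the start at chr15:27919271. The widest Trio peak, 9016 bp in intron 34 at chr15:27782455-27791470, also had the highest signal of the gene in the replicated list, 12.15. Pool I had a peak of 9757 bp and 16.17 there, and pool J a peak of 3313 bp and 8.91, with summits 59 and 216 bp from that of the replicated peak. It stood above the promoter peak in pool I and slightly below it in pool J. A start of the full GENCODE set, chr15:27788638, lies under it, with a transcript of 398 bp of coding sequence; it is not in the basic set and not among the RefSeq starts.

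The other high body peaks of Trio were narrower. The peak in intron 1 at chr15:27936436-27939339 had 2904 bp and 8.27, with 12.48 in pool I and 4.39 in pool J, the largest ratio between the pools among the named Trio peaks. A peak of 1144 bp in intron 9 had 7.43 (9.82 in pool I and 5.87 in pool J). One of 1186 bp in intron 34 had 7.26 (8.19 in pool I and 6.12 in pool J), and one of 1825 bp in intron 33 had 6.96 (9.21 in pool I and 4.82 in pool J). The second widest, 3315 bp in intron 1, had only 4.43 (6.23 in pool I and 4.44 in pool J), so width and signal did not run together in every peak.

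The flanks of Trio were nearly empty upstream. A lone upstream peak had 3.51, at 84.8 kb, and was in pool I (4.32) and not in pool J. Of 10 downstream peaks, the highest were at promoters of neighbours: 11.45 at Otulinl (14.33 in pool I and 8.91 in pool J) and 8.29 at Otulin (8.46 in pool I and 7.11 in pool J). The pool I list had 6 flank peaks and the pool J list 5. Otulin encodes a deubiquitinase of linear ubiquitin chains, and Otulinl a related protein. The Otulin peak is the last inside the limit, at 99.4 kb, and the first outside had 2.65 at 100.2 kb. Within the gene record, promoter peaks of the annotated transcripts Gm20555 (2.57) and Gm9891 (2.92) were counted as body peaks of Trio.

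Peaks absent from the pool lists were narrower and weaker than those in both. For Kalrn 74 of 158 peaks (46.8%) overlapped a peak in the pool I list and one in the pool J list, and for Trio 24 of 59 (40.7%), while over the whole replicated list 56.0% did. Of the rest, 46 Kalrn and 20 Trio peaks were in pool I alone, 6 and 2 in pool J alone, and 32 and 13 in neither. The Kalrn peaks in both lists had a median width of 1050 bp and a median signal of 4.17, against 272.5 bp and 2.67 for those in neither. For Trio these were 1361 bp and 5.44, against 293 bp and 2.60. None of the peaks in neither pool list had a signal above 3.67, which is also the median of the whole replicated list. Those that rest on the combined list alone thus lay at or below that median.

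**Figure D3:**
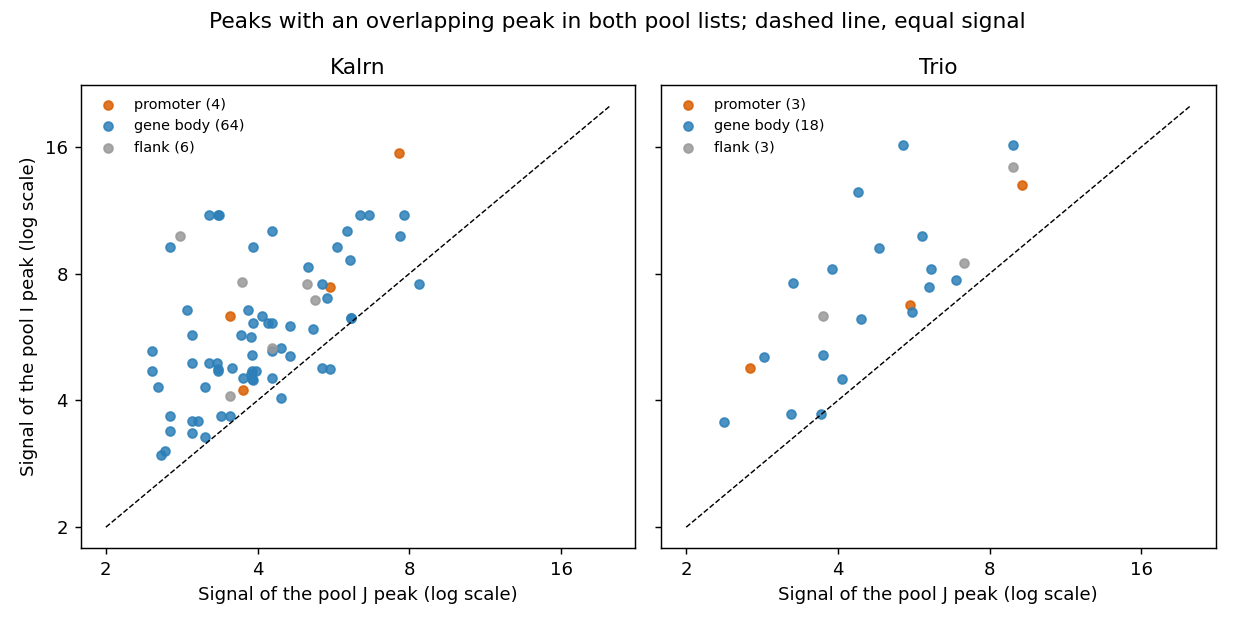
Signal of the pool I peak (vertical, log scale) against that of the pool J peak (horizontal, log scale) for the member peaks found in both pool lists, 74 of Kalrn and 24 of Trio, coloured by location. Nearly all points lie on or above the dashed line of equal signal; points at 1 height can share a wide pool I peak.

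Signals were higher in pool I for 70 of these 74 Kalrn peaks, with a median ratio of pool I over pool J of 1.37 and a range of 0.853 to 3.49. For Trio the median ratio was 1.45, with a range of 1.00 to 3.01 in 24 peaks. Over all 40346 peaks in both lists the median was 1.41 and pool I was higher in 90.9%, so the members followed the whole list. A wide pool I peak can span several replicated peaks, up to 5 at Kalrn. In the pairs of peaks that matched 1 to 1, the median ratio was 1.28 at Kalrn (54 pairs) and 1.40 at Trio (20 pairs). Peaks of pool I covered 23.7% of Kalrn and those of pool J 12.9%, and for Trio the shares were 20.5% and 10.7%.

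Among long genes both members were densely marked. The 998 coding genes with a body of at least 200 kb had a median of 2.05 body peaks per 100 kb and 1.51% of the body covered. Kalrn had 21.8 peaks per 100 kb, with 10 genes above it, and ranked 19 in coverage. Trio had 14.9 per 100 kb, with 45 genes above it, and ranked 28 in coverage with its 17.3%. By number, the 132 body peaks of Kalrn put it 6th of the long genes, and the 44 of Trio put it 64th. In the width of the widest body peak Trio was 3rd and Kalrn 13th. The count of peaks was part of the choice of the genes, so these ranks describe the genes chosen.

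**Figure D4:**
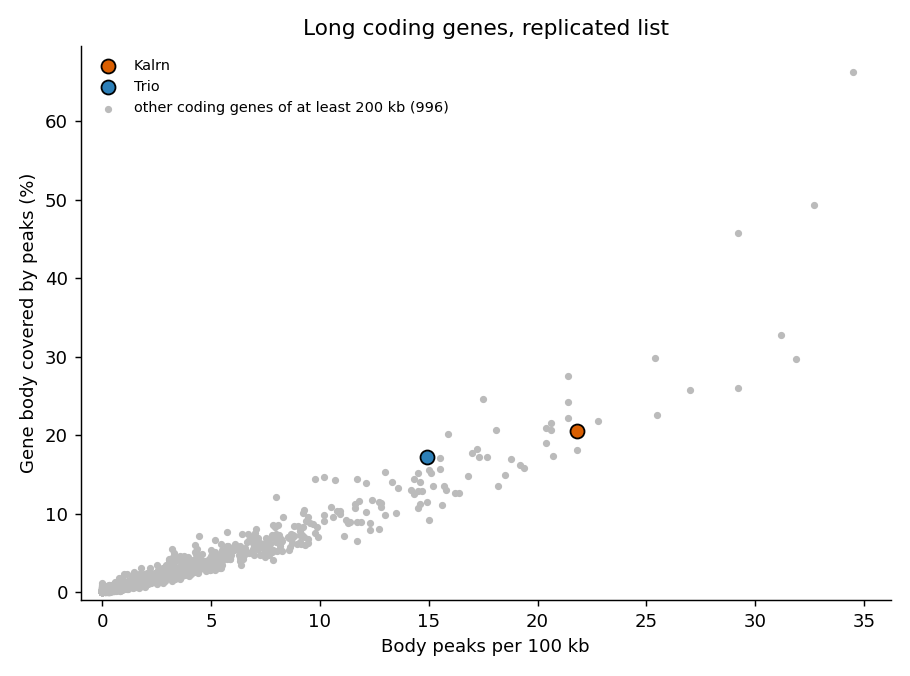
Body peaks per 100 kb (horizontal) against the percentage of the body covered by peaks (vertical) for 998 coding genes of at least 200 kb. Kalrn (21.8 and 20.5%) and Trio (14.9 and 17.3%) lie far above the medians of 2.05 and 1.51%, within the upper group of genes and not at its end.

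In the replicated list their promoters were nearer the middle by signal. The highest promoter signal of Kalrn, 8.33, was above that of 45.7% of the 12719 coding genes with a promoter peak, and that of Trio, 11.35, above 68.5%; the median was 8.86. In the pool I list the signal of Kalrn, 15.46, was above that of 78.3% of such genes and that of Trio, 12.96, above 65.7%, and in the pool J list the shares were 48.2% for Kalrn (7.63) and 64.0% for Trio (9.28). The place of Kalrn thus differed between the pools. By width the Kalrn promoter peak of 8687 bp was 2nd among the long genes that had one, and the Trio peak of 2063 bp was 282nd of 818. The long genes most like Kalrn in body length, body peaks, coverage, promoter signal and promoter width were Syt1, Celf2 and Grin2b, at distances of 1.16, 1.49 and 1.65 in standardised units over 817 genes, where the median gene was at 4.85. The genes most like Trio were Celf4, Srgap3 and Kcnh1, at 0.388, 0.515 and 0.645, against a median of 3.37. Trio was the 38th nearest gene to Kalrn, and Kalrn the 223rd nearest to Trio, so each had many genes more like it than the other.

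Neighbouring distal peaks were merged across short gaps into stitched domains, which were ordered by signal times width added over their peaks. Kalrn held parts of 9 such domains. The highest, of 147 kb and 53 peaks at chr16:34156604-34303451, ranked 22 of 18503 and runs from before the internal start cluster to the end of the dense stretch. The next 2 ranked 291 and 642. Trio held parts of 6, the highest with 79.9 kb and 27 peaks at chr15:27752376-27832249, which ranked 44 and holds introns 33 and 34. Its next ranked 575, in intron 1. Peaks at promoters of the basic set were left out of these sums, so the peak of 8687 bp at the Kalrn cluster adds nothing to the rank of 22. The Trio peak of 9016 bp was kept in its domain, since the full-set start under it is not in the basic set.

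Starts under the strongest peaks included CpG-rich and CpG-poor ones in both genes. In the 500 bp on either side, the Trio start chr15:28025848 had 73.0% G and C and a CpG ratio, the number of CpG over that from base composition, of 0.957. The median over 24310 coding TSSs with a peak was 0.731, and over 16939 without one it was 0.209. The median over all coding TSSs was 0.566. Among the Kalrn starts of the basic set, the ratio was 0.335 at chr16:34263200, 0.271 at chr16:34514086 and 0.173 at the unmarked start chr16:34456917. It was 0.566 at chr16:34096028 and 0.560 at chr16:34095987, where the peaks were narrow. The start at the 5′ end of the Kalrn gene record, chr16:34573532, had 77.8% G and C and a ratio of 0.918. The full-set Trio start chr15:27788638, under the peak of 9016 bp, had a ratio of 0.331. The widest peaks of both genes thus lay over starts with a ratio below the median of marked starts.

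Motif matches were counted on both strands in the 250 bp start windows and the 200 bp summit windows. The motifs were the cAMP response element, spelled TGACGTCA, the AP-1 element, spelled TGANTCA, the GC box, spelled GGGCGG, and the EGR element, spelled GCGNGGGCG, whose end can overlap a GC box. The others were the ETS element, spelled CCGGAAG, a NEUROD-type E-box, spelled CAGATG, the TATA box, spelled TATAAA, and the MEF2 consensus. The Trio start window held 3 GC boxes, a motif found in 61.1% of windows at marked coding TSSs and in 43.3% of those at all coding TSSs. The printed window of the internal Kalrn start held no match to the 8 motifs, while the window drawn from the GENCODE start chr16:34263200 held 1 GC box. The summit windows printed for introns 14 of Kalrn and 1 and 34 of Trio held none. In the windows of the body peaks that lay at no other gene's promoter, the most frequent motif was the E-box, in 24 of 132 for Kalrn (18.2%) and 8 of 42 for Trio (19.0%), and in 17.1% of 52300 distal windows over all. AP-1 was in 4 (3.03%) and 3 (7.14%), against 5.90% in all distal windows. A match is a description of the letters and not a binding site.

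The partners of the pair in small GTPase signalling were followed in 81 genes by role. Of these, 79 had a promoter peak, while 58.5% of all coding genes did. The count was also 79 in the pool I list, where 58.2% of coding genes had one, and in the pool J list, where 55.2% did. The median of their highest promoter signals was 10.5. The genes were listed with the brain roles of kalirin and Trio in mind and with results of these data known, so the count says nothing particular to the list.

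**Figure D5:**
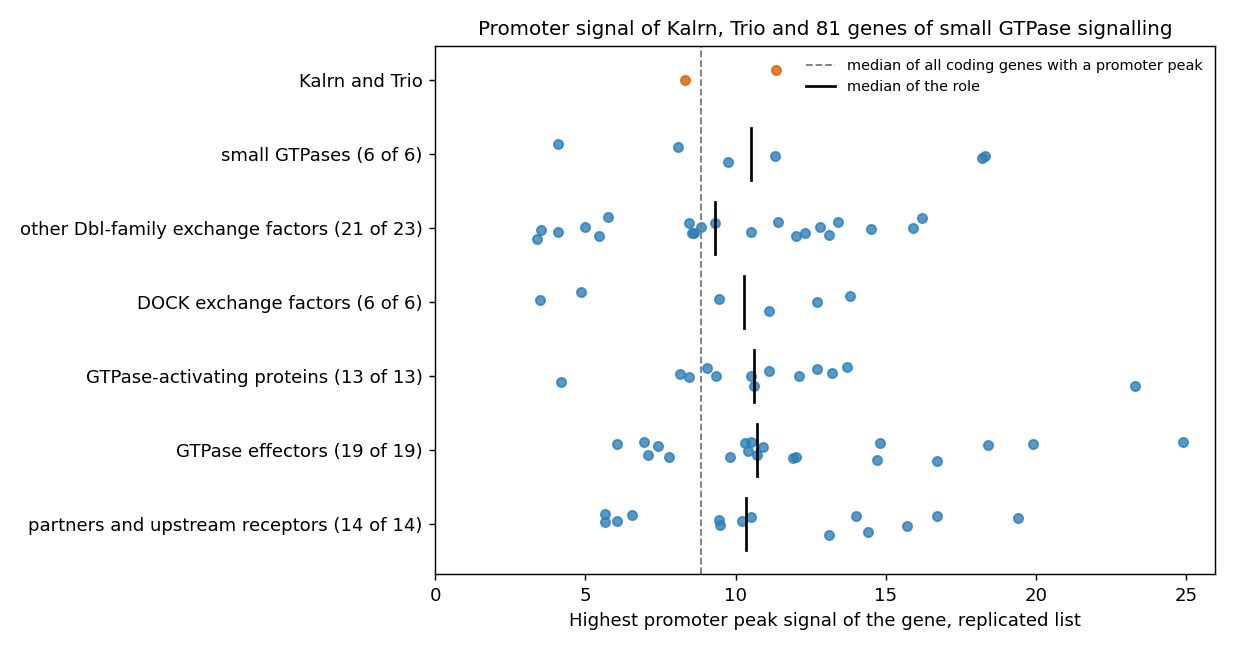
Highest promoter signal (horizontal) of Kalrn and Trio, and of the genes with a promoter peak in each of 6 roles (rows, with the number that had one of the number listed). Kalrn (8.33) lies just left of the dashed line at 8.86, the median of coding genes with a promoter peak, and Trio (11.35) right of it.

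Among the GTPases, all 6 had a promoter peak, with 18.3 at Rhob and 18.2 at Rhoa, and the lowest, 4.07, at Rac3. Of the 23 other exchange factors of the Dbl family, 21 had one. Ngef, an ephexin that acts downstream of ephrin receptors, had 16.2 and Abr 15.9, and Tiam2, a Rac activator, had the lowest with 3.37. Arhgef6 and Vav3 had none in the replicated list. In the pool J list Arhgef6 had 1 and Vav2 had none. All 6 of the DOCK exchange factors, which act on Rac and Cdc42 through an unrelated domain, were marked, from 3.47 at Dock10 to 12.7 at Dock3 and 13.8 at Dock9.

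The GTPase-activating proteins switch the GTPases off again. Here all 13 had a promoter peak, led by Arhgap35 with 23.3 and Arhgap5 with 13.7, and Srgap1 was lowest with 4.17. The annotation holds a pair of overlapping records named Arhgap26. The one used, with the most transcripts, had a promoter signal of 10.6 and 52 body peaks, and the other, of 1 transcript, had no promoter peak. All 19 effectors were marked, with 24.9 at Wasf1, a part of the complex through which Rac drives actin branching, and 19.9 at Cfl1, which encodes the actin-severing cofilin; the lowest was Limk1, a cofilin kinase gene, with 6.06. All 14 partners and receptors were marked too. Ephb2, an ephrin receptor that signals to kalirin, had 19.4 and Pam, the peptide-processing enzyme through which kalirin was found, 16.7. The lowest were Disc1 and Ptprf, both 5.66, of which Ptprf encodes LAR, the phosphatase through which Trio was found. By body peaks, Grin2b led the partners with 95 and Abr the exchange factors with 44, against 132 at Kalrn and 44 at Trio.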

How the data were processed

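H3K27ac ChIP-seq of 4 samples, 2 libraries for each of 2 pools, was deposited as 4 peak lists on mm10, per the labels and the README files: a replicated and a pseudoreplicated list of both pools and a pseudoreplicated list of each pool. The deposited signal of each peak is the authors' value, and its scale is not explained. The aligner, the peak caller and any control correction are likewise not given in the sources used here. Nor is the handling of CAST/EiJ variants, and reads of that copy can map less well. The deposited −log10 q values were used only as a filter, the deposited summit offset to place summits, and the deposited score in no result. The number of reads is unknown.

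Peaks on 19 autosomes and X were compared with GENCODE vM21 (basic) and RefSeq transcript starts of GRCm38.p6, in Python 3.11.15 with pandas 2.3.3, numpy 2.4.6 and pysam 0.24.0. Lists were matched at an overlap of 1 bp, and the pool peak of highest signal was taken. A marker is not reported here. Where a symbol had several gene records, the one with the most basic transcripts was used. The interval code was tested on simulated data. Kalrn and Trio, the gene lists and the markers were chosen with earlier results of these data known. The text names all promoter peaks of both genes, the 5 body peaks of highest signal, the 3 widest, the highest flank peak, neighbouring genes, and in each role the 2 highest promoter signals, the lowest and genes with none. Other peaks near the ends of the Kalrn record were named after their values were seen. Alternatives were the other 3 lists, a −log10 q of at least 5, other promoter, flank, overlap, length and stitching limits, and, chosen after seeing the data, the full GENCODE set and RefSeq starts.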

Additional observations from a re-analysis of the deposited data

How the results depend on the processing

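Over 19 results and 103 alternative values, 73 stayed within 1.5 times the count or rank, or within the SD between the pools of a signal or share, and 30 did not. That SD came from the same pool values that were among the alternatives, so staying within it shows little. Kalrn coverage of 12.9% in pool J, against 20.5%, still counted as within it. With a −log10 q limit of 5, the body peaks of Kalrn numbered 48 (132 without this limit) and those of Trio 14 (44), and coverage was 14.2% (20.5%) and 11.9% (17.3%). Using each pool list alone, Kalrn had 108 body peaks in pool I and 89 in pool J, and Trio 45 and 28. The highest promoter signal of Kalrn was 15.46 in pool I and 7.63 in pool J. Of the 2 basic Trio starts, 2 had a peak in pool I and 1 in pool J; 1 had one in the pseudoreplicated list of both pools, under the q limit, and within 500 bp. The full GENCODE set gave 5 Trio starts with a peak of 15, and RefSeq 4 of 5. With an overlap of at least 50% of both peaks, 43 Kalrn and 14 Trio peaks were in both pool lists, against 74 and 24. The rank of the highest Kalrn domain was 126 at the stricter q, 69 with a shorter stitching distance, and 27 and 36 in the lists of pool I and pool J. For Trio (44) these ranks were 37, 26, 40 and 45. At the stricter q and the shorter distance the Trio domain thus ranked above that of Kalrn. In peaks per 100 kb, Kalrn (11) ranked 22 in pool I, 14 in pool J, 27 under the q limit and 44 among genes of at least 100 kb, and Trio (46) ranked 40, 51, 77 and 142. In coverage they ranked 68 and 100 among genes of at least 100 kb. Flank peaks of Kalrn (19) numbered 7 under the q limit and 3 within 50 kb, and those of Trio (11) 3 and 6. The pathway count was 77 at the stricter q and 69 from the 5′ end of each gene alone. Why these values moved was not tested. The unknown depth, 2 pools and no RNA limit all of the above. No paired analysis was possible because no result comes from a test.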
